A study of Mus musculus with 12 samples.

Results

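The genes described here encode subunits of neurotransmitter receptors, the proteins through which a neuron senses transmitter released by another cell. They were taken as all genes with a single annotated symbol of the Gria, Grin, Grik, Grid, Grm, Gabr, Gabbr, Chrn, Glra, Glrb, Htr, Drd or P2rx families, and 82 of the 18193 named genes on the array qualified, in 12 receptor classes. Each gene was read from 1 probe set, its brightest by mean log2 signal. Total RNA of mouse embryonic stem (ES) cells was hybridised to 12 Affymetrix arrays in 4 groups of 3, which the labels call biological replicates. Per the labels the ES line was E14, Ainv15 on 129P2/OlaHsd, and in every group it carried a Neurog1 transgene under a tetracycline-sensitive expression system. The groups were uninduced cells of the maintenance culture without doxycycline (0 h), and cells given 1 ug/ml doxycycline for 24, 48 or 72 h. All arrays come from this engineered ES line. The uninduced cells were not followed over time, so the effects of the transgene, of doxycycline and of time cannot be told apart.

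Neurog1, a basic helix-loop-helix factor of the proneural family, directs progenitors toward a neuronal fate, in the embryo above all in cranial sensory ganglia and parts of the spinal cord. Ligand-gated receptors for acetylcholine, glycine, GABA, glutamate and ATP are channels assembled from several subunits, and the mix of subunits sets which ions pass and how fast. Receptors of the GABA-B, metabotropic glutamate, dopamine and most serotonin classes signal through G proteins instead.

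Across the whole series, Neurog1 signal was 11.4, 18.7 and 4.53 on the uninduced arrays and 465 to 1150 on the 9 induced arrays. Its log2 difference at 24 h was 5.06 ± 0.26. All 6 tested ES cell markers were lower at 48 h and 72 h than in uninduced cells, and their summed signal ran from 23800 to 25300 in uninduced cells, from 6580 to 9530 at 24 h, from 802 to 1920 at 48 h and from 569 to 1260 at 72 h. Of 8 neuronal markers 7 were higher at 48 h and at 72 h, and the 3 measured sensory neuron markers (Isl1, Pou4f1 and Prph) were higher at both times. The exception was Stmn2, lower at 24 h (-1.56) and not called later. Of 5 neural progenitor markers 4 (Pax6, Sox1, Fabp7 and Vim) were higher at 48 h and 72 h. So were Olig2 and Mbp of the oligodendrocyte list and Foxa2 of the endoderm list, and Sox17 was higher at 72 h. Olig2 signals were 335, 233 and 33.2 at 48 h and 318, 360 and 19.5 at 72 h, and those of Sox17 at 72 h were 45.1, 25.9 and 219. Of the same 2 lists Olig1, Sox10, Gata4 and Afp were not tested, and Gata6 was not called. The part of progenitor, oligodendrocyte or endoderm cells in the receptor values was not tested. Markers of GABAergic and glycinergic neurons (Gad1, Gad2, Slc32a1 and Slc6a5) stayed too dim to be tested in every group. Their summed signal ran from 26.2 to 42.4 in uninduced cells, from 56.7 to 68.3 at 24 h, from 43 to 50.9 at 48 h and from 27.2 to 34.1 at 72 h. Replicate 1 of the 24 h group stood apart, with correlations from r = 0.787 to its group's other arrays, while every other pair within a group reached at least r = 0.961 across genes. Results of 24 h were therefore also computed without it.

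Receptor subunits were mostly dim. Signals are intensities in the units of the authors' scaling, in which the median over an array's probe sets was 19.5 to 32.8. A gene was tested only where its signal exceeded the array's median on all 3 arrays of at least 1 group. By this rule 28 of the 82 receptor subunits were tested (34.1%), against 11806 of all 18193 genes (64.9%). On no array did 39 subunits (47.6%) exceed the median, while this held for 21.3% of all genes. In uninduced cells 8 subunits exceeded it on all 3 arrays, and 4 did so on all 12 arrays.

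**Figure D1:**
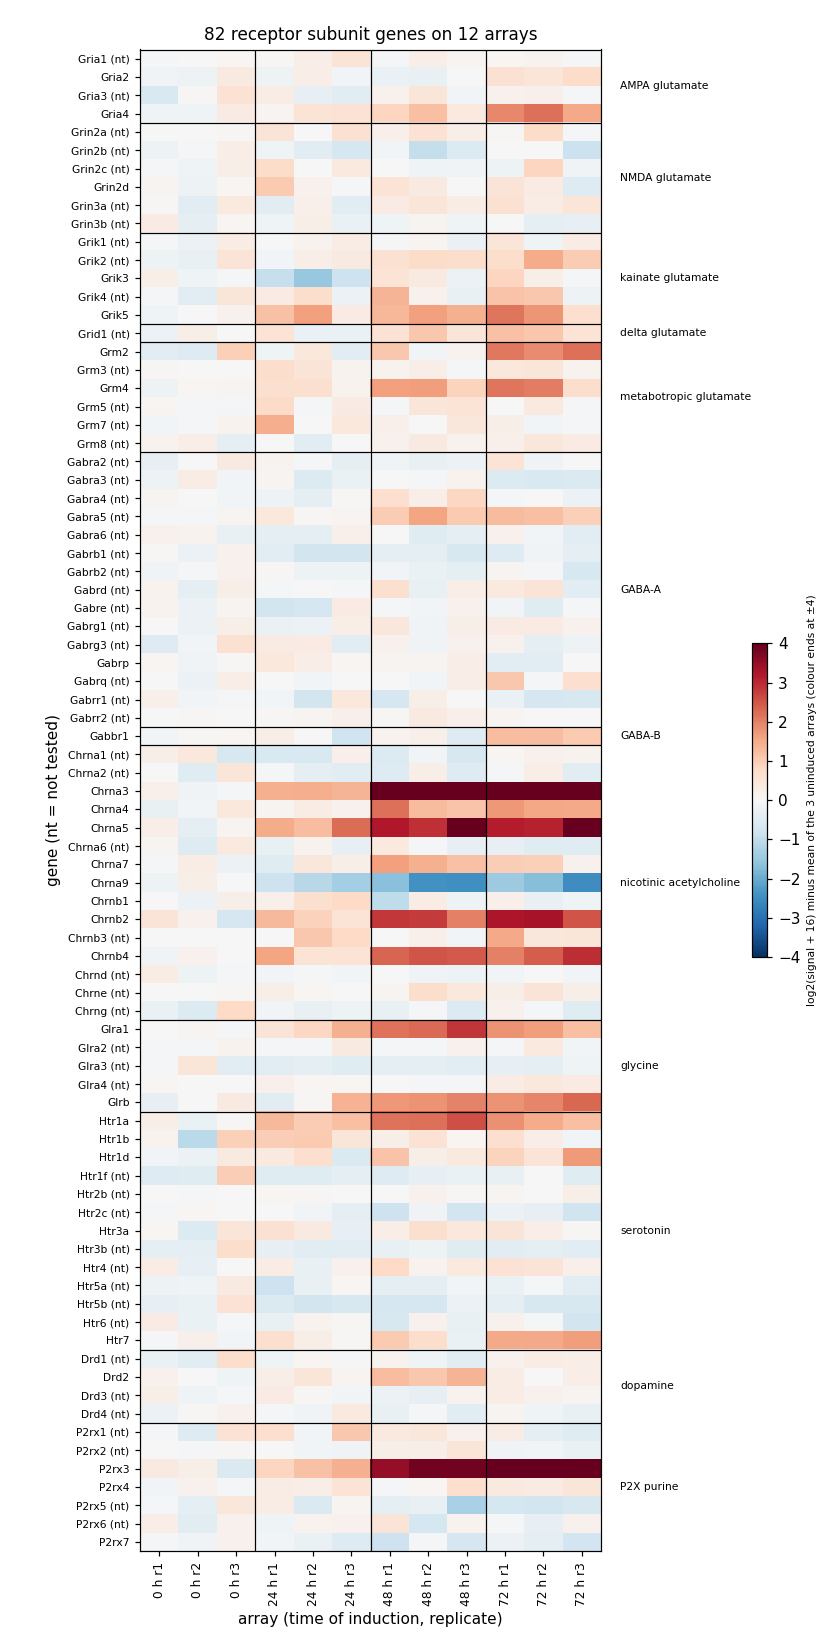
Every receptor subunit gene (rows, grouped by class) on each of the 12 arrays (columns, by hours of induction and replicate), coloured by log2(signal + 16) minus the mean of the 3 uninduced arrays, with the colour ending at 4 in either direction. Genes marked nt were not tested. The strongest rises are Chrna3, Chrna5, Chrnb2 and P2rx3 at 48 h and 72 h, Chrna9 is lower at all 3 times, Grik3 is lower at 24 h, and most GABA-A rows stay near 0.

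Differences below are in log2(signal + 16), which understates changes of dim genes, and are given ± limma's standard error (SE), each for 3 arrays against 3. A gene was called where its limma p, adjusted by Benjamini-Hochberg over all 11806 tested genes, was under 0.05. At 72 h, 17 of the 28 tested subunits were higher than in uninduced cells and 1 was lower. Among all tested genes, 25.3% were called higher and 18.6% lower in that comparison. At 48 h, 14 subunits were higher and 1 lower, beside 22.6% and 14.0% of all tested genes (36.6% in either direction). At 24 h, 4 were higher and 2 lower, beside 8.12% and 3.18%. These 24 h counts turned on single arrays. Without replicate 1 of 24 h, the array that stood apart, 5 were higher and 2 lower. Without replicate 3 of 72 h, 6 were higher. The count of higher subunits was 1 without replicate 2 of the uninduced cells and 2 without their replicate 3, without replicate 2 of 24 h or without replicate 2 of 48 h, and the count of lower ones was 0 without any 1 of the 3 uninduced arrays or without replicate 2 of 24 h, and 1 without replicate 3 of 24 h or replicate 2 of 48 h or of 72 h. Over the 28 tested subunits the difference had a median of 0.35 after 24 h, 0.7 after 48 h and 1.34 after 72 h, against 0.1, 0.12 and 0.09 over all tested genes. Over all 82 subunits, tested or not, the medians were 0.06, 0.15 and 0.16, against 0.04, 0.02 and 0.01 over all 18193 genes. Of the 28 tested subunits 20 passed the filter in induced cells without passing it in uninduced cells, so the counts and medians over tested subunits lean toward rises by construction. For 11 of them 1 group alone passed the filter. These were Gria2, Gria4, Grm2, Htr1d and Htr7 through 72 h, Grik5 and Drd2 through 48 h, Gabrp and Chrnb1 through 24 h, and Chrna9 and P2rx7 through the uninduced cells, so a difference between that group and the others was part of their selection. In bulk RNA, a change in the number of cells that express a gene and a change in RNA per cell cannot be told apart.

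**Figure D2:**
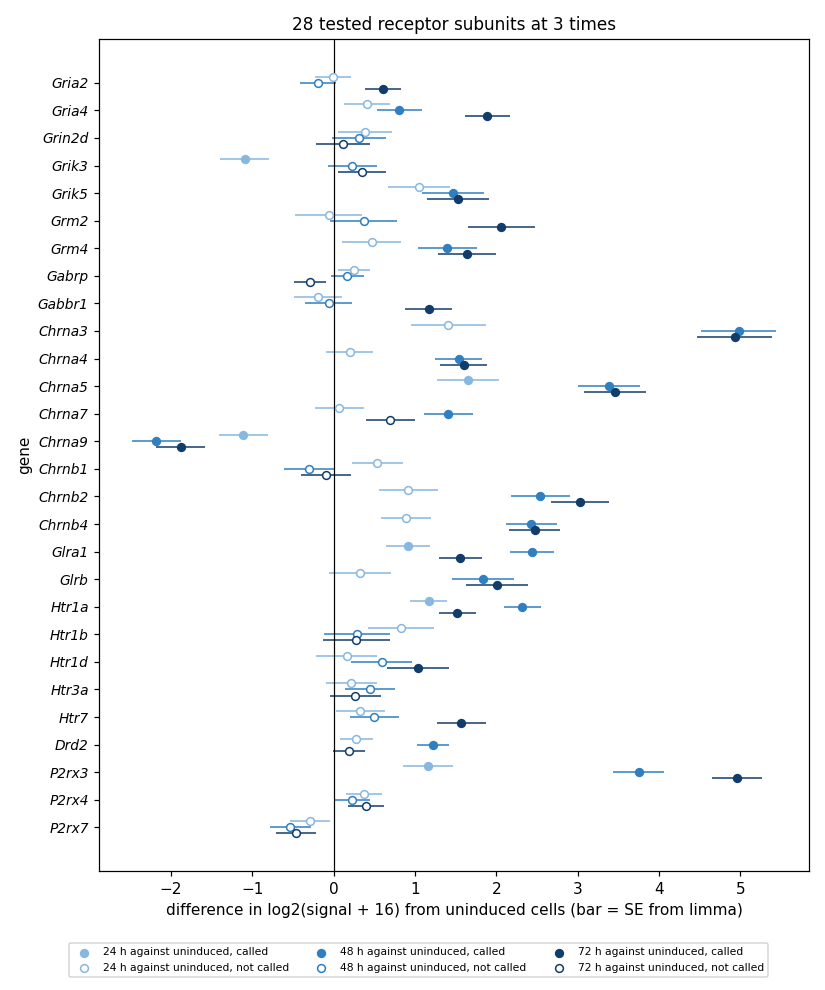
Difference from uninduced cells in log2(signal + 16) for the 28 tested subunits (rows), at 24 h, 48 h and 72 h, with the SE from limma as the bar. Filled points passed an adjusted p of 0.05, and 17 subunits lie to the right with filled points at 72 h, led by P2rx3 at 4.96 and Chrna3 at 4.93.

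Among nicotinic acetylcholine receptor genes, Chrna3, Chrna4, Chrna5, Chrnb2 and Chrnb4 were higher at 48 h and at 72 h, Chrna7 was higher at 48 h and Chrna9 was lower at all 3 times. Of 15 nicotinic genes on the array 8 were tested, and 6 were higher and 1 lower at 48 h than in uninduced cells. At 72 h, 5 were higher and 1 lower, and the 62.5% that were higher lay near the 60.7% of all tested subunits. Chrna3, Chrna5 and Chrnb4 encode the subunits of the ganglionic nicotinic receptor of autonomic and sensory neurons. Chrna4 and Chrnb2 encode the pair that forms the main high-affinity nicotinic receptor of the brain, and Chrna7 forms homomeric channels with high calcium permeability.

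Chrna3 had signals of 16.4, 9.17 and 10.7 in uninduced cells, 58.7, 61.2 and 55.2 at 24 h, 770, 605 and 1390 at 48 h, and 526, 523 and 2090 at 72 h. Every array of 24 h lay above every uninduced array and below every array of 48 h and 72 h, while 48 h and 72 h overlapped. The difference was 4.98 ± 0.46 at 48 h (adjusted p = 6.95e-06) and 4.93 ± 0.46 at 72 h (adjusted p = 4.23e-06). At 24 h it was 1.41 ± 0.46 with an adjusted p of 0.068. With the replicate number as a block the 24 h difference passed (adjusted p = 0.0396), as it did without the array of 24 h that stood apart (adjusted p = 0.0497).

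Chrna5 encodes an accessory subunit that joins receptors made of other alpha and beta subunits. Its signals were 22.5, 8.26 and 18.3 in uninduced cells, 73.5, 58 and 133 at 24 h, 274, 226 and 495 at 48 h, and 267, 251 and 548 at 72 h. The uninduced arrays were lowest, the 24 h arrays intermediate and the arrays of 48 h and 72 h highest, with overlap between these last times. It was higher at 24 h by 1.65 ± 0.38 (adjusted p = 0.015), at 48 h by 3.38 ± 0.38 (adjusted p = 3.09e-05) and at 72 h by 3.46 ± 0.38 (adjusted p = 1.68e-05). The array numbered 3 was the brightest for both Chrna3 and Chrna5 at 48 h and at 72 h. With all 4 arrays numbered 3 left out, the calls of both genes at 48 h and 72 h remained, and that of Chrna5 at 24 h did not, with a difference of 1.41 (adjusted p = 0.0501). Over all its alternatives the adjusted p of Chrna5 at 24 h ran from 0.00152 to 0.0751.

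Chrnb2 had signals of 25.1, 16.2 and 1.92 in uninduced cells, 54.3, 38.8 and 26.2 at 24 h, 189, 182 and 99.9 at 48 h, and 257, 268 and 149 at 72 h. The groups did not overlap until 48 h and 72 h, and here the array numbered 3 was the dimmest of each group. The difference was 2.54 ± 0.36 at 48 h (adjusted p = 0.000151) and 3.03 ± 0.36 at 72 h (adjusted p = 2.79e-05). At 24 h it was 0.92 ± 0.36 with an adjusted p of 0.117, and of 0.0109 with the replicate block.

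Chrnb4 and Chrna4 were likewise higher at both later times. Chrnb4 signals ran from 16 to 24.1 in uninduced cells, from 162 to 187 at 48 h and from 128 to 260 at 72 h. The difference was 2.43 ± 0.31 at 48 h and 2.47 ± 0.31 at 72 h (adjusted p = 4.72e-05). Chrna4 signals ran from 19.1 to 40.9 in uninduced cells, from 78.5 to 182 at 48 h and from 107 to 126 at 72 h. Its difference was 1.54 ± 0.29 at 48 h and 1.6 ± 0.29 at 72 h (adjusted p = 0.000668). For both genes the arrays of these times lay above every uninduced array. Neither gene passed at 24 h, where Chrnb4 stood at 0.89 ± 0.31 (adjusted p = 0.0868) and Chrna4 at 0.2.

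Chrna7 was higher at 48 h alone. Its signals were 102 to 152 in uninduced cells, 83 to 171 at 24 h, 297 to 410 at 48 h and 138 to 255 at 72 h, so only the 48 h arrays lay clear of the uninduced ones. The difference was 1.41 ± 0.30 at 48 h (adjusted p = 0.00309). At 72 h it was 0.7 ± 0.30 (adjusted p = 0.0784), and it passed without replicate 3 of 72 h (0.97, adjusted p = 0.0261). The step between 48 h and 72 h was not called (-0.71 ± 0.30, adjusted p = 0.494).

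Chrna9 was the only called nicotinic gene that fell. It encodes a subunit known from cochlear and vestibular hair cells, where it forms a receptor with alpha10. Signals were 69.9 to 102 in uninduced cells, 22.7 to 39.7 at 24 h, 2.22 to 15.2 at 48 h and 1.92 to 20.3 at 72 h. No array of an induced group reached the lowest uninduced array. It fell by 1.11 ± 0.30 at 24 h (adjusted p = 0.033), by 2.18 ± 0.30 at 48 h (adjusted p = 0.00014) and by 1.88 ± 0.30 at 72 h (adjusted p = 0.000304). Of 21 alternatives, 21 kept each of the later calls and 13 that of 24 h, which was lost without any 1 of the uninduced arrays. Over these alternatives the difference ran from -3.87 to -0.58 at 48 h and from -3.1 to -0.58 at 72 h. With the mean of its probe sets it was -0.32 at 24 h. Chrna9 was tested only because its uninduced arrays passed the filter, so a difference between these and the induced arrays was part of its selection.

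The subunits of the muscle receptor did not pass in any comparison. Chrnb1 was tested and not called, with signals of 17.2 to 30.1 in uninduced cells and 3.26 to 51.6 over the induced arrays. Its difference of 48 h from 24 h was -0.84 ± 0.31 (adjusted p = 0.0819). That step was called lower with quantile normalization and with arrays scaled to a common median. It was also called without replicate 1 of 24 h, the array that stood apart, and without replicate 2 of 48 h. Chrna1, Chrnd, Chrng and Chrne were too dim to be tested, as were Chrna2, Chrna6 and Chrnb3, and together these 7 genes ran from 0.36 to 35.9 over all arrays. Of 12 skeletal muscle markers, the myogenic factors Myod1, Myf5, Myog and Myf6 were among 8 that could not be tested. Des and Tnnt1 were higher at 24 h, Actc1 was higher at 72 h and Mylpf was lower at all 3 times. The summed signal of the list was 1370 to 1810 in uninduced cells, 409 to 637 at 24 h, 236 to 263 at 48 h and 191 to 307 at 72 h. Mylpf alone had 1220 to 1630 in uninduced cells and 49.5 to 64 at 72 h, so the fall of the sum is mostly that of this gene. The part of such cells in the nicotinic values was not tested.

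**Figure D3:**
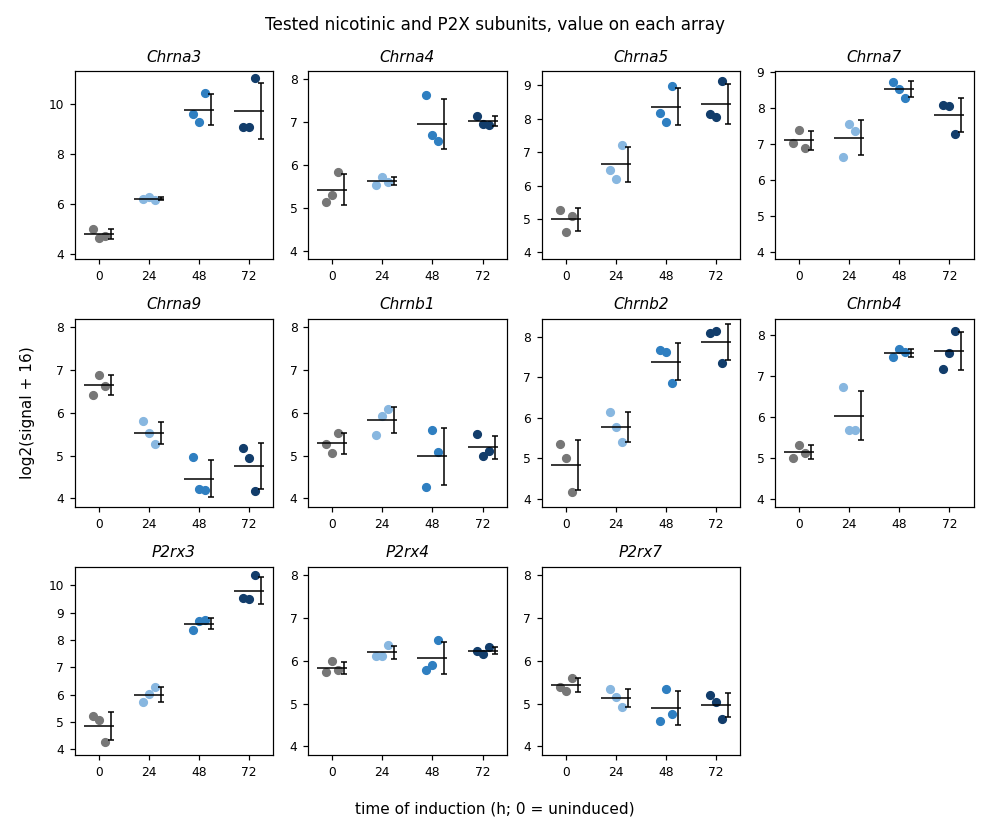
log2(signal + 16) of the 8 tested nicotinic and 3 tested P2X subunits on each array (points), by hours of induction with 0 for uninduced cells. Long lines are group means and bars are ± 1 SD (n = 3 arrays), and each panel has its own vertical scale. Chrna3, Chrna5, Chrnb2, Chrnb4 and P2rx3 climb over time, Chrna9 descends, and Chrnb1, P2rx4 and P2rx7 show overlapping or nearly overlapping groups.

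Chrna5, Chrna3 and Chrnb4 are neighbours on mouse chromosome 9 in the RefSeq annotation of GRCm38.p6, in which the annotated spans of Chrna5 and Chrna3 overlap and those of Chrna3 and Chrnb4 do not. Which probe sets lie in the shared stretch could not be read from the sources used here. Their promoter windows are shown because these 3 neighbours rose together, beside that of Chrna9, which fell. Each window of RefSeq covers 250 bases before to 50 after an annotated start, read 5′ to 3′ on the gene's strand, and capitals mark CANNTG, the E-box letters that basic helix-loop-helix factors bind. The windows are chr9:54980630-54980929 and chr9:54981238-54981537 for the annotated starts of Chrna5 (both plus strand), chr9:55026513-55026812 for Chrna3 (minus strand), chr9:55048495-55048794 for Chrnb4 (minus strand) and chr5:65966874-65967173 for Chrna9 (plus strand).
Chrna5, upstream start: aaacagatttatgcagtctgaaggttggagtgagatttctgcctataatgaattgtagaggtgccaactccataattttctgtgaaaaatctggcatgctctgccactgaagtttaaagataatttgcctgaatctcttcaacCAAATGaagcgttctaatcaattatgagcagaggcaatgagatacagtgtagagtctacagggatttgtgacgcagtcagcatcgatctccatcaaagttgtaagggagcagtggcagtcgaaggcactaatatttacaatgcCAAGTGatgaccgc
Chrna5, downstream start: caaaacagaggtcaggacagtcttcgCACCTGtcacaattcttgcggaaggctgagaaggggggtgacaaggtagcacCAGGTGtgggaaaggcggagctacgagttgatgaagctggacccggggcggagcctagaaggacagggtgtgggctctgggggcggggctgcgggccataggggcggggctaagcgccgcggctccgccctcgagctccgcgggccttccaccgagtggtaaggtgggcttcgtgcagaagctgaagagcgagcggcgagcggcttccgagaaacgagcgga
Chrna3: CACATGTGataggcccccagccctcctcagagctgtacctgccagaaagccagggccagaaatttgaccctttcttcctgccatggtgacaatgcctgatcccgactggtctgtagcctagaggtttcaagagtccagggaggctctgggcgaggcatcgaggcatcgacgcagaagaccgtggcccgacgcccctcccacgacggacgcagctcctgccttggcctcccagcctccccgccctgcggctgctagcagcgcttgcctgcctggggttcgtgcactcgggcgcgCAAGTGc
Chrnb4: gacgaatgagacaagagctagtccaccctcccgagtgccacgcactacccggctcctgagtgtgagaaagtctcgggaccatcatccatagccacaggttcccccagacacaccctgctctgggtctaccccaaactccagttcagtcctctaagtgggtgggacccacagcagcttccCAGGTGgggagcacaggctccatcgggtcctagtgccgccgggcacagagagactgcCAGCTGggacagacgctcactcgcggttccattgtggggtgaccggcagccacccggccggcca
Chrna9: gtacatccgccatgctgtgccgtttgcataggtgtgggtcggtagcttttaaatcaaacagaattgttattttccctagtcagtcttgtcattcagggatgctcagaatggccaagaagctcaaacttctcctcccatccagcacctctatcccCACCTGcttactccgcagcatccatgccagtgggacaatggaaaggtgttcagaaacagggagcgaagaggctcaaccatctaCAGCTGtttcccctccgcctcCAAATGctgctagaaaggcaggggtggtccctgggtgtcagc
Each window held CANNTG, which reads the same on both strands in this form. There were 3 matches in Chrna3, of which CACATG and CATGTG overlap, 2 in each Chrna5 window, 2 in Chrnb4 and 3 in Chrna9. The form CAGCTG occurred in Chrnb4 and Chrna9, and CAGGTG or its complement CACCTG in Chrnb4, Chrna9 and the downstream start of Chrna5.

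Over all receptor subunits, RefSeq windows were found for 61 of the 82 genes, 73 windows in all. CANNTG occurred in 13 of 20 windows of called subunits (65%), in 30 of 53 windows of the other subunits (56.6%) and in 72.3% of all 32851 windows of the table. CAGGTG, counted on both strands, occurred in 6 of the 20 windows (30%), in 18.9% of the 53 and in 20.2% of all windows. CAGCTG occurred in 2 of the 20 (10%), against 16.3% of all windows. CAGATG, also counted on both strands, occurred in 0 of the 20 and in 17.2% of all windows. These shares are descriptions, and the rising and the falling nicotinic genes shown above alike had matches.

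P2rx3 had one of the largest rises of any receptor subunit. It encodes a subunit of ATP-gated channels that is best known from sensory neurons of pain and other visceral and somatic afferents. Its signals were 20.9, 17.7 and 3.32 in uninduced cells, 36.7, 49.6 and 61 at 24 h, 313, 402 and 406 at 48 h, and 735, 703 and 1330 at 72 h. No 2 of the 4 groups overlapped, each later group lying wholly above the one before. P2rx3 was higher by 1.16 ± 0.31 at 24 h (adjusted p = 0.032), by 3.75 ± 0.31 at 48 h (adjusted p = 3.2e-06) and by 4.96 ± 0.31 at 72 h (adjusted p = 2.58e-07). Between 48 h and 72 h it was 1.21 ± 0.31 and not called (adjusted p = 0.109). The 24 h call did not hold without replicate 3 of the uninduced cells, the dimmest, nor under 8 of the other alternatives, and without the 24 h array that stood apart it did (1.3, adjusted p = 0.00824). The markers Isl1, Pou4f1 and Prph moved with it, their summed signal running from 31.3 to 86.4 in uninduced cells, from 119 to 215 at 24 h, from 1360 to 2290 at 48 h and from 3710 to 4400 at 72 h. Their part in the P2rx3 values was not tested.

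Of the other P2X genes 2 were tested and 0 were called. P2rx4, with signals of 54.9 to 63.4 at 72 h against 36.9 to 47.4 in uninduced cells, and P2rx7, with 8.99 to 20.9 against 22.9 to 32.6, had 72 h arrays that did not overlap the uninduced ones. With the mean of all its probe sets in place of the brightest, P2rx4 was called higher at 72 h. Under the same choice P2rx7 was called lower at 48 h and at 72 h, as it was with quantile normalization. P2rx7 passed the filter through the uninduced arrays alone. P2rx1, P2rx2, P2rx5 and P2rx6 were not tested and ran from 1.71 to 44.1. P2rx2 encodes the usual partner of P2rx3 in heteromeric channels, and on no array did its signal exceed the median.

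Glycine receptor subunits Glra1 and Glrb both rose. Glra1 encodes the ligand-binding alpha1 subunit of the adult spinal cord receptor, and Glrb the beta subunit that anchors the receptor to gephyrin. Glra1 had signals of 1.51, 2.9 and 0.568 in uninduced cells, 9.03, 15.4 and 30.8 at 24 h, 64.2, 69.6 and 111 at 48 h, and 45.7, 40 and 24.9 at 72 h. It was highest at 48 h, where every array exceeded every array of the other groups. Glra1 was higher by 0.92 ± 0.27 at 24 h (adjusted p = 0.0493, and 0.0561 with the replicate block), by 2.44 ± 0.27 at 48 h (adjusted p = 3.09e-05) and by 1.56 ± 0.27 at 72 h (adjusted p = 0.000584). The 24 h call was kept under 6 of 21 alternatives and the later ones under all 21.

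Glrb had signals of 1.08, 5.41 and 11.8 in uninduced cells, 0.234, 6.2 and 40.3 at 24 h, 55.9, 58.7 and 70 at 48 h, and 59.2, 67.1 and 90.7 at 72 h. The arrays of 24 h were scattered below, within and above the uninduced range, and all arrays of 48 h and 72 h lay higher. Glrb was higher by 1.84 ± 0.38 at 48 h (adjusted p = 0.00236) and by 2.01 ± 0.38 at 72 h (adjusted p = 0.000945). Glra2, Glra3 and Glra4 did not exceed the median on any array and were not tested.

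GABA-A receptor subunits, which form the main inhibitory chloride channel of the brain, made up the largest untested group. Of 15 genes on the array 1 was tested, Gabrp, the pi subunit known from tissues outside the brain, and it was not called (13.5 to 23.8 at 72 h, against 20.5 to 26.4 in uninduced cells). The other 14 had signals of 0.335 to 39.1, and 10 of them exceeded the median on no array. Gabra5, chosen after its values were seen, had 0.876, 0.381 and 2.6 in uninduced cells, 7.17, 1.91 and 2.75 at 24 h, 19.2, 35.7 and 19.5 at 48 h, and 25.5, 23.7 and 17.7 at 72 h. All arrays of 48 h and 72 h lay above the others while exceeding the array median on 1 array. With no filter on dim probe sets its difference was 1.22 ± 0.2 at 48 h (adjusted p = 0.000688) and 1.15 ± 0.2 at 72 h (adjusted p = 0.00076). Without the filter Gabra3 was lower at 72 h (-0.58 ± 0.19, adjusted p = 0.0383), and Gabra4 was higher at 48 h than at 24 h (0.78 ± 0.21, adjusted p = 0.0279). Both are named, like Gabra5, because of these values.

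Gabbr1, the ligand-binding subunit of the metabotropic GABA-B receptor, was bright from the start and rose late. Its signals were 161, 181 and 184 in uninduced cells, 213, 173 and 93.7 at 24 h, 195, 202 and 118 at 48 h, and 437, 438 and 375 at 72 h. The arrays of 0 h, 24 h and 48 h overlapped, and those of 72 h lay above them all. It was higher at 72 h by 1.17 ± 0.29 (adjusted p = 0.00539). From the step between 48 h and 72 h came a difference of 1.23 ± 0.29 with an adjusted p of 0.0803, and of 0.0476 with the replicate block.

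Of the ionotropic glutamate receptors, both tested AMPA subunits were higher at 72 h, 1 of 2 tested kainate subunits was higher, and the 1 tested NMDA subunit was not called. AMPA receptors carry most fast excitatory transmission. Gria4 had signals of 9.87, 10 and 20.7 in uninduced cells, 15.1, 26.9 and 27.8 at 24 h, 36.5, 51.1 and 21.8 at 48 h, and 94.9, 118 and 68.1 at 72 h. The 72 h arrays lay above all the rest, and the 48 h arrays just above the uninduced ones. Gria4 passed the filter through its 72 h arrays alone. The difference was 0.81 ± 0.28 at 48 h (adjusted p = 0.0358, kept under 14 of 21 alternatives) and 1.89 ± 0.28 at 72 h (adjusted p = 0.000152).

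Gria2, whose edited subunit makes AMPA receptors impermeable to calcium, changed less. It had signals of 19.8, 18.6 and 34.7 in uninduced cells, 18.7, 32 and 21.1 at 24 h, 17, 16.6 and 23.6 at 48 h, and 45, 39.5 and 49.8 at 72 h. Again the 72 h arrays lay above all others, and the earlier groups overlapped. Gria2 too passed the filter through its 72 h arrays alone. At 72 h it was higher by 0.61 ± 0.22 (adjusted p = 0.0404), a call that 12 of 21 alternatives did not keep. Gria1 and Gria3 exceeded the median on no array.

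Kainate receptors are ionotropic glutamate receptors that modulate release and excitability. Grik5, a subunit that needs a partner from Grik1 to Grik3, had signals of 3.39, 5.76 and 8.37 in uninduced cells, 32.9, 52.4 and 11.5 at 24 h, 38.7, 52.4 and 42 at 48 h, and 80.8, 58.4 and 18.3 at 72 h. All 9 induced arrays lay above the uninduced arrays, and the induced groups overlapped each other. Grik5 passed the filter through its 48 h arrays alone. It was higher by 1.47 ± 0.38 at 48 h (adjusted p = 0.00938) and by 1.53 ± 0.38 at 72 h (adjusted p = 0.00593), and at 24 h stood at 1.05 ± 0.38 (adjusted p = 0.0977).

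Grik3 was lower at 24 h and not called at the later times. Its signals were 119, 87 and 92.9 in uninduced cells, 44.3, 23.9 and 49.3 at 24 h, 152, 131 and 81.8 at 48 h, and 192, 120 and 93.5 at 72 h. The 24 h arrays lay below all others, and the other groups overlapped. At 24 h it fell by 1.09 ± 0.30 (adjusted p = 0.036), and without the 24 h array that stood apart by 1.17 (adjusted p = 0.0162). Of 21 alternatives 12 kept this call, and leaving out any 1 of the uninduced arrays ended it. The difference of 48 h from 24 h was 1.31 ± 0.30 (adjusted p = 0.00963). It was not called at 48 h (0.23) or at 72 h (0.35) against uninduced cells.

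Of the remaining ionotropic glutamate genes, Grin2d, an NMDA subunit of early development, was tested and not called, with signals of 15.8 to 49 at 72 h against 23.6 to 33.1 in uninduced cells. The other 5 NMDA genes ran from 0.604 to 31, and the 3 untested kainate genes from 0.802 to 43.5. Of the delta class, Grid1 was on the array and not tested, at 0.619 to 28.9. Grik2 and Grid1, like Gabra5 chosen after their values were seen, passed at 72 h when no filter was set, by 1.06 ± 0.25 (adjusted p = 0.00628) and 0.94 ± 0.27 (adjusted p = 0.0177).

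Metabotropic glutamate receptors Grm2 and Grm4, presynaptic receptors that lower transmitter release, were both higher at 72 h. Grm2 had signals of 3.48, 2.79 and 35.5 in uninduced cells, 7.84, 19.9 and 3.49 at 24 h, 40.5, 8.65 and 13.1 at 48 h, and 97.9, 82.1 and 106 at 72 h. The first 3 groups overlapped widely and the 72 h arrays lay above them. The difference at 72 h was 2.06 ± 0.41 (adjusted p = 0.00139). Grm2 was tested only because these 72 h arrays passed the filter. Grm4 had 28.6, 37.8 and 39.2 in uninduced cells, 64.2, 63 and 39.6 at 24 h, 144, 145 and 78.7 at 48 h, and 209, 196 and 67.5 at 72 h. Its replicate 3 was the dimmest array of every induced group, and the 48 h and 72 h arrays lay above the earlier ones. It was higher by 1.4 ± 0.36 at 48 h (adjusted p = 0.00906) and by 1.64 ± 0.36 at 72 h (adjusted p = 0.00279). Grm3, Grm5, Grm7 and Grm8 were not tested, at 0.255 to 35. The vesicular glutamate transporter Slc17a6, a marker of glutamatergic neurons, was higher at 72 h by 1.77 ± 0.31, and Slc17a7 was not tested.

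Of 13 serotonin receptor genes 5 were tested, and 3 were higher at 72 h. Htr1a encodes a receptor coupled to inhibitory G proteins that also serves as an autoreceptor. Its signals were 8.14, 1.06 and 5.49 in uninduced cells, 34.6, 26 and 31.5 at 24 h, 77, 79.3 and 108 at 48 h, and 57.8, 42.3 and 32.1 at 72 h. As with Glra1, the 48 h arrays lay above all others and every induced array above the uninduced ones. It was higher by 1.17 ± 0.23 at 24 h (adjusted p = 0.00625), by 2.32 ± 0.23 at 48 h (adjusted p = 1.18e-05) and by 1.52 ± 0.23 at 72 h (adjusted p = 0.000208). The 24 h call was kept under 19 of 21 alternatives. It was lost with the mean of its probe sets (0.85, adjusted p = 0.0669) and without all arrays numbered 3 (1.18, adjusted p = 0.0596). The later 2 calls were kept under all 21.

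Htr7, a receptor that raises cyclic AMP, and Htr1d, an inhibitory receptor of trigeminal and other sensory endings, were called at 72 h and not earlier. Both entered the test through their 72 h arrays alone, so high values there were part of their selection. Htr7 had signals of 6.63, 11.7 and 6.16 in uninduced cells, 22.4, 12.8 and 8.83 at 24 h, 33.3, 23.2 and 4.13 at 48 h, and 52.9, 52.1 and 60.8 at 72 h. The 72 h arrays lay close together above all others, a difference of 1.57 ± 0.30 (adjusted p = 0.00112). At 48 h its difference was 0.5, and without replicate 3 of 48 h it was 0.87 and called (adjusted p = 0.0217). Htr1d had 16.4, 13.8 and 29 in uninduced cells, 30.2, 39.8 and 7.65 at 24 h, 61.2, 25.5 and 30.3 at 48 h, and 49.1, 34.3 and 98.1 at 72 h. Its 72 h arrays exceeded the uninduced ones and overlapped those of 48 h, and the difference of 1.04 ± 0.38 (adjusted p = 0.0434) was lost under 12 of 21 alternatives. With the mean of its probe sets Htr1d was also called at 48 h (0.9, adjusted p = 0.0351). Htr1b and the channel subunit Htr3a were tested and not called. The other 8 serotonin genes ran from 0.352 to 32.4.

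Drd2, the inhibitory dopamine receptor, was called at 48 h alone against uninduced cells. It had signals of 17.3, 13.2 and 10.2 in uninduced cells, 18.8, 25 and 16 at 24 h, 53, 45.5 and 59.6 at 48 h, and 20.4, 13.5 and 19.4 at 72 h. The 48 h arrays lay above all others, and the 72 h arrays overlapped the uninduced ones. Drd2 was tested only because these 48 h arrays passed the filter, and on no array of 72 h or of uninduced cells did it exceed the median. It was higher by 1.22 ± 0.20 at 48 h (adjusted p = 0.000513). At 72 h it fell by 1.03 ± 0.20 relative to 48 h (adjusted p = 0.0333, and 0.0513 with the replicate block), a call that 9 of 21 alternatives kept and that ended without any 1 of the arrays of 48 h or 72 h. Drd1, Drd3 and Drd4 exceeded the median on no array.

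**Figure D4:**
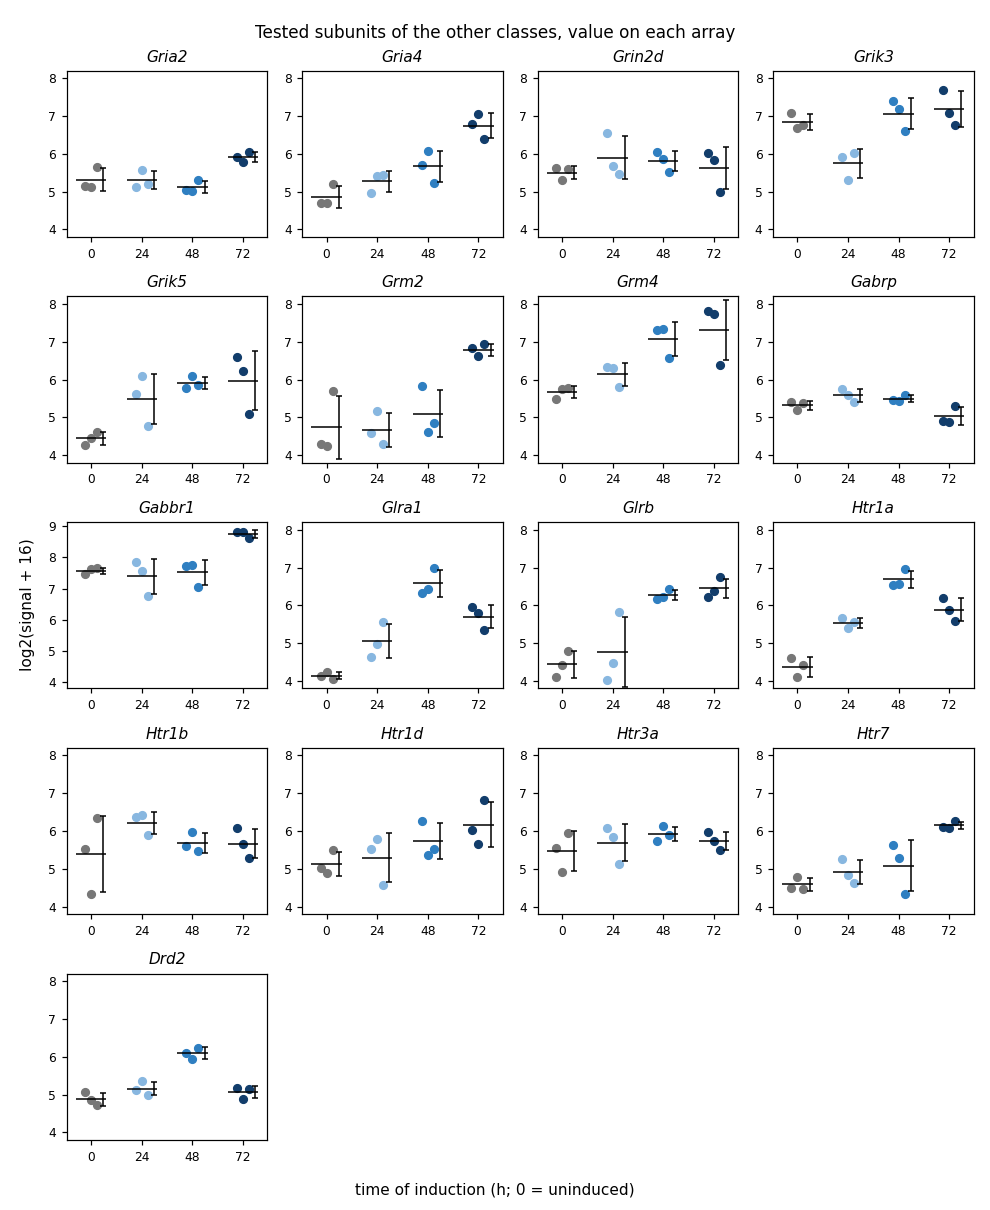
log2(signal + 16) of the 17 tested subunits of the other classes on each array (points), by hours of induction with 0 for uninduced cells. Long lines are group means and bars are ± 1 SD (n = 3 arrays). Glra1, Htr1a and Drd2 are highest at 48 h, while Gria4, Grm2, Gabbr1 and Htr7 are highest at 72 h.

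The times at which subunits were called differed between genes. Against uninduced cells Chrna5, Glra1, Htr1a and P2rx3 were higher at all 3 times. At 48 h and 72 h without a call at 24 h came 8 genes (Chrna3, Chrna4, Chrnb2, Chrnb4, Glrb, Gria4, Grik5 and Grm4), at 72 h alone 5 (Gria2, Grm2, Gabbr1, Htr1d and Htr7), and at 48 h alone 2 (Chrna7 and Drd2). These comparisons share the uninduced arrays. Gria2, Grm2, Htr1d and Htr7 were tested because of their 72 h arrays, and Drd2 because of its 48 h arrays, so that filter bears on the time at which each is called. Set directly against 24 h, 12 subunits were higher and 1 lower at 48 h, beside 10.3% and 7.55% of all tested genes. The 12 were Grik3, Chrna3, Chrna4, Chrna5, Chrna7, Chrnb2, Chrnb4, Glra1, Glrb, Htr1a, Drd2 and P2rx3, and the 1 lower was Chrna9, whose call was kept under 14 of 21 alternatives and was lost without replicate 1 or 2 of 24 h and without replicate 2 or 3 of 48 h. Grm4 joined them with the replicate block (0.93, adjusted p = 0.0439). From 48 h to 72 h the tested subunits gave 0 higher calls and 1 lower, Drd2, beside 0.644% and 0.152% of all tested genes (0.796% in either direction). At an unadjusted limma p under 0.05 this step gave 6 higher and 5 lower, beside 4.89% and 3.71% of all tested genes. The 6 were Gria2 (0.79), Gria4 (1.08), Grm2 (1.69), Gabbr1 (1.23), Htr7 (1.07) and P2rx3 (1.21). The 5 were Gabrp (-0.46), Chrna7 (-0.71), Glra1 (-0.87), Htr1a (-0.8) and Drd2 (-1.03). Gria4, Grm2, Gabbr1 and P2rx3 were called without the 24 h array that stood apart, which enters this step through the shared spread.

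For 51 of the 82 genes the array carried more than 1 probe set, 161 in all. Among the further probe sets that passed the filter, 15 belonged to genes called at 72 h. All 15 differed in the same direction and 13 were called. At 48 h these numbers were 13, 13 and 11. At 24 h they were 4, 3 and 0. Further probe sets that were dim in uninduced cells passed the filter only through induced arrays, so agreement on rises is partly set by that selection. The share of agreement over all genes was not computed. Calls of further probe sets come from a separate fit over all probe sets that passed the filter, with its own adjustment. Of the 2 further Chrna3 probe sets, one passed the filter and gave 1.2, 2.41 and 1.38 in uninduced cells, 74.8, 48.5 and 44.2 at 24 h, 634, 611 and 1230 at 48 h, and 491, 538 and 1630 at 72 h. It was called at 24 h with a difference of 2, unlike the brighter one. The other did not pass the filter, and its differences were 0.21 at 24 h, 1.5 at 48 h and 1.5 at 72 h.

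Genes that assemble, anchor or modify these receptors were also examined, in a list of 62 genes on the array of which 44 were tested. At 72 h, 25 were higher and 1 lower than in uninduced cells, so that 56.8% of the tested genes of the list were higher, against 25.3% of all tested genes. At 48 h, 23 were higher and 0 lower (52.3% higher, against 22.6%). At 24 h, 5 were higher and 0 lower, and their share of 11.4% was close to the 8.12% of all tested genes. Some of the list lay under the array median in uninduced cells, such as Lhfpl4 (1.07 to 12.5) and Ly6h (10.9 to 14.9). Such genes were tested through their induced arrays, so counts and medians over tested genes of the list also lean toward rises by construction. The median difference over the tested genes of the list was 0.24 after 24 h, 0.86 after 48 h and 0.93 after 72 h, against 0.1, 0.12 and 0.09 over all tested genes. Over all 62 genes of the list, tested or not, it was 0.11, 0.38 and 0.66. The largest at 72 h was Frrs1l, a factor of AMPA receptor biogenesis in the endoplasmic reticulum, with signals of 23.1, 18.5 and 17.8 in uninduced cells, 148, 379 and 425 at 24 h, 781, 654 and 689 at 48 h, and 488, 446 and 399 at 72 h. All induced arrays lay far above the uninduced ones, and Frrs1l was higher by 3.1 ± 0.32 at 24 h, by 4.34 ± 0.32 at 48 h and by 3.68 ± 0.32 at 72 h (adjusted p = 2.42e-06).

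The AMPA receptor scaffold Grip1 had signals of 224 to 295 at 72 h, against 20.9 to 24.5 in uninduced cells (2.8 ± 0.25). Ly6h, a membrane-anchored protein that binds nicotinic receptors, had 101 to 198 against 10.9 to 14.9 (2.54 ± 0.3). Lhfpl4, an auxiliary subunit of GABA-A receptors, was higher by 2.38 ± 0.29, and the metabotropic receptor scaffold Homer2 by 2.17 ± 0.37. Gabarapl1, a relative of the GABA-A receptor-associated protein, was higher by 2.07 ± 0.27. Partners of AMPA, nicotinic, metabotropic glutamate and GABA-A receptors were among the genes that rose, while of the GABA-A subunits themselves only Gabrp was bright enough to be tested. Nptx2, a secreted pentraxin that clusters AMPA receptors, was the 1 gene lower at 72 h (-1.52 ± 0.41) and is named because of that value.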

How the data were processed

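Transcript levels of 12 samples were measured on Affymetrix arrays. The authors deposited linear intensity values, with 1 signal for each probe set, and the submitters' processing notes name MAS5 without settings. The 2% trimmed mean was 150 on every array, no 2 arrays were identical, and the deposited scaling was kept. Of 45101 probe sets, 34945 had 1 gene symbol in the platform annotation and were used, 932 had several and 9160 had none. All 82 members matched the NCBI gene table (GRCm38.p6) by Entrez identifier. Per gene, the probe set with the highest mean was taken as log2(signal + 16).

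Genes above their array's median (percentile 50) on all 3 arrays of a group were tested by lmFit, contrasts.fit and eBayes with intensity trend (limma 3.58.1, R 4.3.3), in 1 model of 4 group means and 5 two-sided contrasts with 8 residual degrees of freedom. The script was tested on simulated data. The number of arrays limits the precision, and p-values measure the spread between arrays that the labels call biological replicates, with no word on separate cultures.

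Replicate numbers recur across groups in the labels. Deviations from group means of same-numbered arrays correlated at 0.031 to 0.577 and those of differently numbered arrays at -0.479 to 0.322. In 4 of the 5 comparisons all 3 pairs exceeded 0.1, so values with the number as a block are given where they change a call. For 72 h against uninduced cells the lowest pair was 0.079.

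Every subunit called in at least 1 comparison is named, with values per array for up to 3 per class, and of the associated genes the 6 largest called at 72 h. Members, lists and alternatives were chosen with earlier results of these data known. Other pseudocounts, filters, normalizations, probe set choices, the block and left-out arrays were tried as alternatives.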

Additional observations from a re-analysis of the deposited data

Results flagged for a closer look

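Several subunits differed in level between induced times when those times were tested against each other. For 48 h against 24 h the log2 difference was 3.57 for Chrna3, 2.59 for P2rx3, 1.73 for Chrna5, 1.62 for Chrnb2, 1.54 for Chrnb4, 1.52 for Glra1 and 1.5 for Glrb. It was 1.34 for Chrna4, 1.34 for Chrna7, 1.31 for Grik3, 1.15 for Htr1a, 0.94 for Drd2 and -1.07 for Chrna9. For 72 h against 48 h Drd2 was the one such gene, at -1.03. That Drd2 call was kept under 9 of 21 alternatives, and the Chrna9 call for 48 h against 24 h under 14 of 21.

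Probe sets that the comparisons did not use were tested in a separate fit over all probe sets passing the filter, with its own adjustment. The search covered the comparisons with uninduced cells. There, unused probe sets gave calls in 3 cases where the gene's brighter probe set gave none in the fit over genes. The unused probe set of Chrna3 was higher at 24 h than in uninduced cells by 2. That of Htr1d was higher at 48 h by 1.21, and that of P2rx7 was lower at 72 h, with a difference of -1.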

How the results depend on the processing

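Of 53 calls of single subunits, 36 held under each alternative in which the gene was tested, and none of the 53 changed direction under any of them. Chrna9 kept its fall at 48 h and 72 h and Chrna3, Chrna5, Chrnb2, Chrnb4, Chrna4, P2rx3, Glra1, Glrb, Htr1a, Grik5 and Grm4 their rises at both times. Leaving out arrays gave 1 to 6 higher and 0 to 2 lower at 24 h (4 and 2 with all arrays), 13 to 15 and 1 to 2 at 48 h, 15 to 18 and 1 to 1 at 72 h, 10 to 13 and 0 to 1 for 48 h against 24 h, and 0 to 4 and 0 to 1 for 72 h against 48 h. The 4 came without replicate 1 of 24 h. Without all arrays numbered 3, an alternative chosen after seeing the data, 2 were higher at 24 h (Chrna3 and Grik5, neither among the 4) and 0 lower. A filter that takes any 3 of the 12 arrays, also added afterwards, tested 12629 genes and lost Glra1 at 24 h.

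The filter at percentile 75, which leaves 7 members to test, gave 2 higher and 0 lower at 24 h, 6 and 0 at 48 h, 6 and 0 at 72 h, 6 and 0 for 48 h against 24 h, and 0 lower for 72 h against 48 h. No filter gave 1 lower at 24 h, 2 lower at 72 h (with Gabra3) and 0 lower for 72 h against 48 h. A pseudocount of 64 gave 1 higher and 1 lower at 24 h and 4 higher for 72 h against 48 h. A pseudocount of 1 gave 1 lower at 24 h, 0 lower for 48 h against 24 h and 0 lower for 72 h against 48 h. The mean of a gene's probe sets gave 2 higher and 1 lower at 24 h, 2 lower at 48 h, 2 lower at 72 h, 0 lower for 48 h against 24 h and 1 higher for 72 h against 48 h. Quantile normalization gave 2 lower at 48 h, 2 lower at 72 h, 2 lower for 48 h against 24 h and 0 lower for 72 h against 48 h. P2rx7 was the added lower subunit at 48 h and 72 h, here and with the mean of a gene's probe sets. Scaling to a common median gave 2 lower for 48 h against 24 h and 0 lower for 72 h against 48 h, and moved the median over tested genes to -0.18 at 72 h, against 0.09. Chrnb1 was the added lower subunit for 48 h against 24 h under this scaling and under quantile normalization. With the replicate block 5 were higher at 24 h, 16 at 72 h (Htr1d lost, adjusted p = 0.0552) and 13 for 48 h against 24 h, and 72 h against 48 h gave 1 higher and 0 lower. Some of these settings used fewer genes or arrays, and the cause of the changed counts was not tested. For 54 members the signal was too low for a test.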
